A study of Mus musculus with 6 samples.

Results

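The genes of the uncoupling proteins and of the creatine and calcium cycles that dissipate energy without UCP1 were examined in beige adipocytes at an early stage of differentiation. The 10 genes were taken by symbol from the 56884 genes of each library. They comprised 3 uncoupling protein genes (*Ucp1*, *Ucp2* and *Ucp3*), 6 genes of the creatine cycle (*Slc6a8*, *Gatm*, *Gamt*, *Ckb*, *Ckmt1* and *Alpl*) and *Atp2a2*, which encodes the calcium pump SERCA2. All 10 were listed in each of the 6 libraries. RNA was sequenced from cells overexpressing PPARγ2 K382Q (3 biological replicates), in which glutamine resembles acetylated lysine, and from cells overexpressing PPARγ2 K382R (3 biological replicates), in which arginine resembles deacetylated lysine. PPARγ2 is the nuclear receptor that drives adipocyte differentiation. Both mutants were HA-tagged mouse proteins carried by retroviral vectors into an immortalised line of stromal vascular fraction (SVF) cells of mouse subcutaneous fat, and the cells were selected with puromycin. Both groups were at day 2 of beige differentiation, in medium with isobutylmethylxanthine (500 µM), indomethacin (125 µM), dexamethasone (2 µg/mL), insulin (5 µg/mL), T3 (1 nM) and rosiglitazone (0.5 µM), an agonist of the same receptor. The comparison is therefore of 1 mutant with the other, and no cells with wild-type PPARγ2 or with an empty vector were analysed here. The labels do not say whether the replicates came from separate transductions, so the p-values measure the spread between these libraries.

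UCP1 lets protons return across the inner mitochondrial membrane without ATP synthesis, and the energy leaves as heat. UCP2 and UCP3 are related carriers of the same membrane, UCP2 of many cell types and UCP3 best known in muscle and brown fat, and neither is held to be a main source of heat. In the creatine cycle, creatine is phosphorylated by a creatine kinase at the expense of ATP and the phosphocreatine is hydrolysed again. In the calcium cycle, SERCA pumps spend ATP to bring calcium into the endoplasmic reticulum, from which it leaves again through release channels.

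The promoters of the 3 uncoupling protein genes are shown because all members of this family were higher in K382Q cells and PPARγ is known to act at *Ucp1*. Binding of either mutant to these promoters, and any part of it in the differences, was not tested. The RefSeq promoter table (GRCm38.p6, 250 bases before to 50 bases after the start) held 8 of the 10 genes, all except *Slc6a8* and *Atp2a2*. Capitals mark each match, on either strand, to AGGTCA, the half-site of nuclear receptors, or to TGACG, the half-site of the cAMP response element (CGTCA on the printed strand when the match is on the other strand). The matches did not overlap one another.
Ucp1, chr8:83290098-83290397, plus strand: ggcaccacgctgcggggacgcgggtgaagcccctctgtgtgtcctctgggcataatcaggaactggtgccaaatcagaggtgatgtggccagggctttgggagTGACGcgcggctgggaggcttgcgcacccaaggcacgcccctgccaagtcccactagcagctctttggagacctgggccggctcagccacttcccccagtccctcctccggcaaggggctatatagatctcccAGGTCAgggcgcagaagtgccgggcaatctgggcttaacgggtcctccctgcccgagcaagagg
Ucp2, chr7:100493108-100493407, plus strand: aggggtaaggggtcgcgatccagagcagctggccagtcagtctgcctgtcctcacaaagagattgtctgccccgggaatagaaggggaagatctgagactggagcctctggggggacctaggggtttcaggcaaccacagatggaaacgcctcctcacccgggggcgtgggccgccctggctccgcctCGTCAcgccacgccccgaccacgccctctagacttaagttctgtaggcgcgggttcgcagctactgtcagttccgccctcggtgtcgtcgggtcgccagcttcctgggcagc
Ucp3, chr7:100472741-100473040, plus strand: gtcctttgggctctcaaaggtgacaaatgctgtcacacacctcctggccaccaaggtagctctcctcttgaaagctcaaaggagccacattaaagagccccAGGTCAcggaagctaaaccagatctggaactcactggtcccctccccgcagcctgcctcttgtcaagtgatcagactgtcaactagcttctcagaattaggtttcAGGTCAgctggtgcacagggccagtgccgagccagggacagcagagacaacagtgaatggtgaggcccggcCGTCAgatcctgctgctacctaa
In the *Ucp1* promoter, AGGTCA began 14 bases before the start and TGACG 147 bases before it. The *Ucp2* promoter held TGACG on the opposite strand, 62 bases before the start, and no AGGTCA. The *Ucp3* promoter held AGGTCA 149 and 44 bases before the start, and TGACG on the opposite strand 28 bases after it. Among all 32851 promoters of the table, AGGTCA was present in 16.3% and TGACG in 20.8%, so both are common. The table held 2 promoters of *Alpl*, also higher in K382Q cells, of which 1 had AGGTCA 31 bases and TGACG, on the opposite strand, 128 bases before the start and the other had neither. The promoter of *Gatm* and 1 of 2 promoters of *Ckmt1*, both genes near 0 TPM, held AGGTCA on the opposite strand, and neither motif was in those of *Ckb* and *Gamt*. The longer DR1 motif, a pair of half-sites as bound by PPARγ with its partner RXR (AGGNCA and again AGGNCA with 1 base between, N being any base), was searched on both strands of the 3000 bases before the start in GRCm39. It was present for 0 of the 10 genes and for 5.25% of 21644 protein-coding genes. Only exact matches to this pattern were counted, and sites that depart from it were missed. The search therefore cannot tell whether a gene lacks a site for PPARγ.

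The values are the TPM that the authors deposited, a share of transcripts that is scaled for gene length. Levels are compared between genes on this scale and on that of coverage, since the order of some genes differs between them. Genes were tested with limma on log2(TPM + 0.5), with Benjamini-Hochberg adjustment over all 15426 genes that reached 0.5 TPM in 3 or more libraries, and a gene past the test had an adjusted p-value under 0.05. A differentially expressed gene (DEG) also had a fold change over 2. Aligned reads amounted to 5.95 to 8.15 Gb per library. The median log2 fold change of all genes tested was -0.14, and scaling by the median of ratios moved it to 0.0039. Fat cell genes were abundant (*Fabp4* at 37390 to 50292 TPM), the 6 leukocyte markers summed to at most 0.283 TPM in any library, and *Zic1* and *Meox1*, markers of classical brown fat, were listed at 0 in every library. The 6 markers of precursors or fibroblasts that were tested were all lower in K382Q cells, and the 10 listed summed to 520 to 563 TPM against 881 to 919 TPM in K382R cells. Of the 9 adipocyte markers tested, 5 were higher and 2 lower (6 and 1 with median-ratio scaling, under which all 6 precursor markers were also lower). The shares among all genes tested were 11.1% higher and 36.9% lower. *Cfd* (log2 fold change 1.23) and *Adipoq* (-1.28) were DEGs in opposite directions. *Thy1* of the precursor markers (-1.25) and *Lhx8*, a gene of the brown lineage (-1.12), were also DEGs. The *Hoxc8*, *Hoxc9* and *Hoxc10* genes of white and beige fat summed to 97.9 to 104 TPM in K382Q and 121 to 123 TPM in K382R cells, the 8 muscle markers to 2.79 to 3.72 and 5.75 to 6.69 TPM (mostly *Acta1*, with 3 of the 8 listed at 0 in every library) and the 4 endothelial markers to 1.54 to 2.16 and 1.63 to 1.76 TPM. The part of these shifts in the results was not tested, and in such bulk RNA fewer cells of a type and less RNA per cell cannot be told apart.

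Of the 10 genes, 8 passed the filter on low TPM and 6 passed the test, against 48.1% of all genes tested. *Ucp1*, *Ucp2*, *Ucp3* and *Alpl* were higher in K382Q cells, a direction called for 11.1% of all genes, and *Slc6a8* and *Atp2a2* were lower, a direction called for 36.9%. With median-ratio scaling the same 6 genes passed in the same directions, and the directions were even over all genes tested, with 19.9% higher and 20.4% lower. *Ucp1* and *Ucp3* were DEGs, as were 3.88% of all genes tested, 1.27% in the same direction. Neither was a DEG with a pseudocount of 1. *Ucp3* was not a DEG with FPKM, and *Ucp1* was not tested with FPKM or with the filter at 1 TPM. With median-ratio scaling, 287 genes were DEGs in the higher and 297 in the lower direction, in place of 196 and 403. *Ucp1* and *Ucp3* reached the filter in the K382Q libraries alone, so a difference was built into their selection. In the 6 genes past the test the 3 values of one mutant did not overlap the 3 of the other, which was also so for 57.0% of all genes tested. For *Ucp1* and *Ucp3* the lack of overlap followed from the filter.

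**Figure D1:**
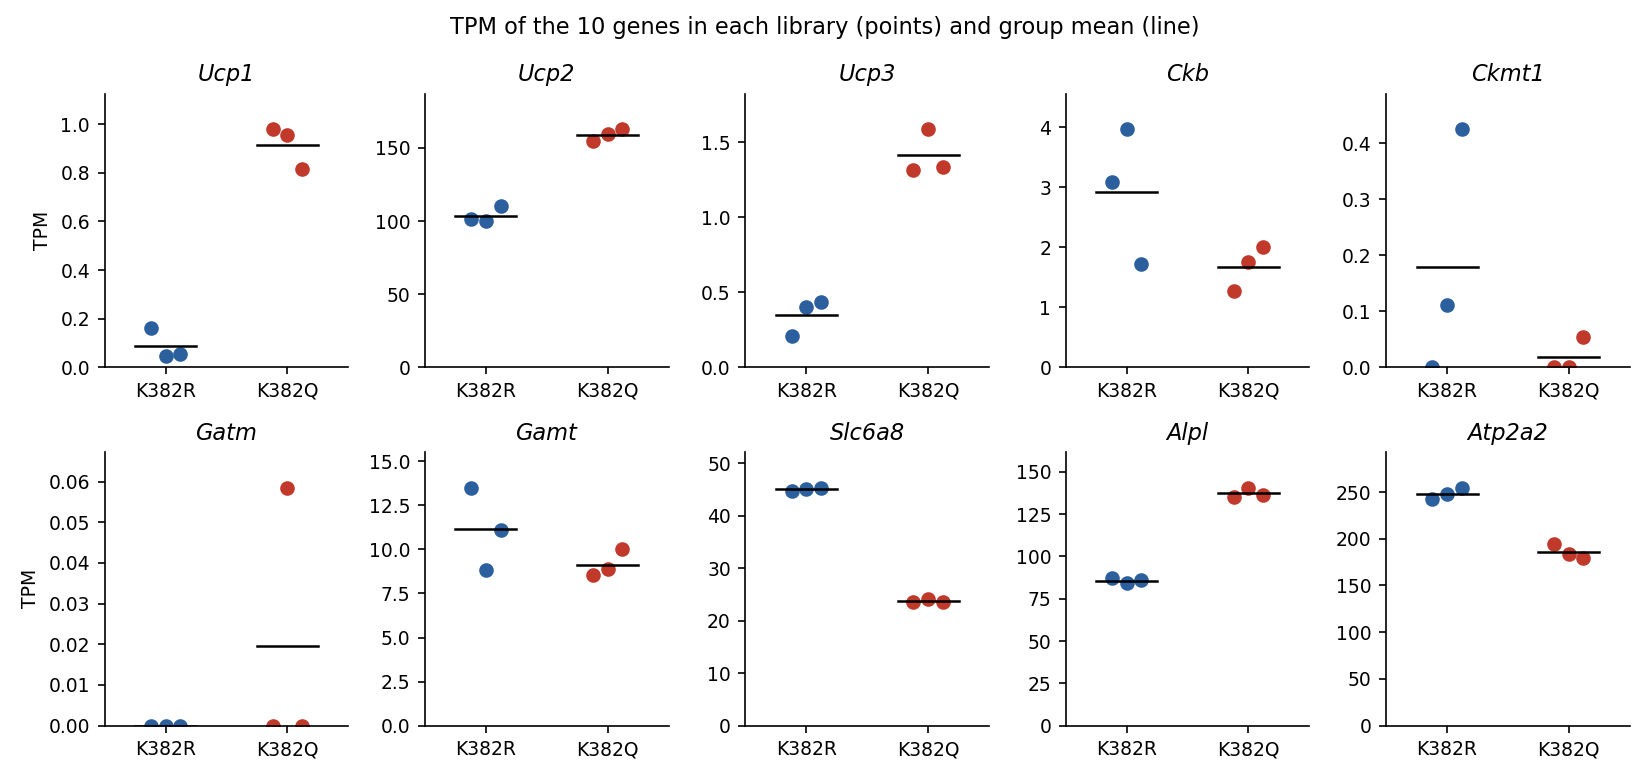
TPM of each of the 10 genes in the 6 libraries (points; vertical axes start at 0 and differ between genes), with the mean of each group as a line (n = 3). The points of the mutants are apart for *Ucp1*, *Ucp2*, *Ucp3*, *Slc6a8*, *Alpl* and *Atp2a2* and overlap for *Ckb*, *Ckmt1*, *Gatm* and *Gamt*.

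All 3 uncoupling protein genes were higher in K382Q cells, but at levels far apart. *Ucp2* was the bulk of the family and rose 1.53-fold, whereas *Ucp3* and *Ucp1* were rare and differed by larger folds. *Ucp1* (ENSMUSG00000031710.5, chr8:84016981-84025081, plus strand, GRCm39) was at 0.980, 0.954 and 0.816 TPM in K382Q replicates 1 to 3 and at 0.162, 0.0439 and 0.0532 TPM in K382R replicates 1 to 3. The lowest K382Q value was thus above the highest K382R value, although no library reached 1 TPM. Only the K382Q libraries reached 0.5 TPM, so this separation followed from the filter and lends the test no weight. The means were 0.917 ± 0.0881 and 0.0863 ± 0.0655 TPM (SD, n = 3), a ratio of 10.6. With each library left out in turn the ratio ran from 8.53 (without K382R replicate 2) to 18.9 (without K382R replicate 1). On the log2(TPM + 0.5) scale, which draws low genes towards 0, the difference was 1.28 (SE 0.197, 95% confidence interval 0.82 to 1.73, adjusted p = 0.00117 in limma after Benjamini-Hochberg adjustment). The deposited coverage, the mean read depth over the bases of the gene, was 1.99 to 2.94 in K382Q and 0.134 to 0.488 in K382R libraries, so few reads lay behind the K382R values.

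*Ucp3* (ENSMUSG00000032942.15, chr7:100122197-100135639, plus strand) was at 1.32, 1.59 and 1.33 TPM in K382Q and at 0.209, 0.403 and 0.437 TPM in K382R replicates 1 to 3. Every K382Q library was again above every K382R library, which also followed from the filter, since only the K382Q libraries reached 0.5 TPM. The means of 1.41 ± 0.151 and 0.350 ± 0.123 TPM (SD, n = 3) had a ratio of 4.04, and the log2 fold change was 1.18 (SE 0.186, 95% confidence interval 0.75 to 1.61, adjusted p = 0.00131 in limma). Coverage of *Ucp3* was 2.53 to 3.61 in K382Q and 0.460 to 1.00 in K382R libraries. The gene shares 1857 bases with *Gm10603* on the opposite strand, which reached 2.62 TPM in K382Q and 2.07 TPM in K382R libraries, without overlap between the mutants (log2 fold change 0.37, adjusted p = 0.0687 in limma). The sources used here do not say whether reads were counted by strand, so reads of the pair may not be fully told apart in *Ucp3*.

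*Ucp2* (ENSMUSG00000033685.14, chr7:100142544-100151227, plus strand) lies 6904 bases beyond *Ucp3* on the same strand. It was at 155, 159 and 163 TPM in K382Q and at 101, 100.2 and 110.0 TPM in K382R replicates 1 to 3. The gap between the mutants was several times the spread within either. The means were 159 ± 4.10 and 104 ± 5.43 TPM (SD, n = 3), and the log2 fold change was 0.61 (SE 0.0434, 95% confidence interval 0.51 to 0.71, adjusted p = 2.3e-05 in limma). *Ucp2* made up 98.6 ± 0.134% of the TPM of the 3 genes in K382Q and 99.6 ± 0.0452% in K382R cells (SD, n = 3). The summed TPM of the family was 161 ± 4.05 and 104 ± 5.47 (SD, n = 3). The share of *Ucp2* was 1.03 percentage points lower in K382Q cells, without overlap between the mutants, and the exact permutation test gave p = 0.1, the smallest two-sided p that 3 against 3 libraries allow. Most of the difference in the summed TPM of the family was therefore that of *Ucp2*.

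**Figure D2:**
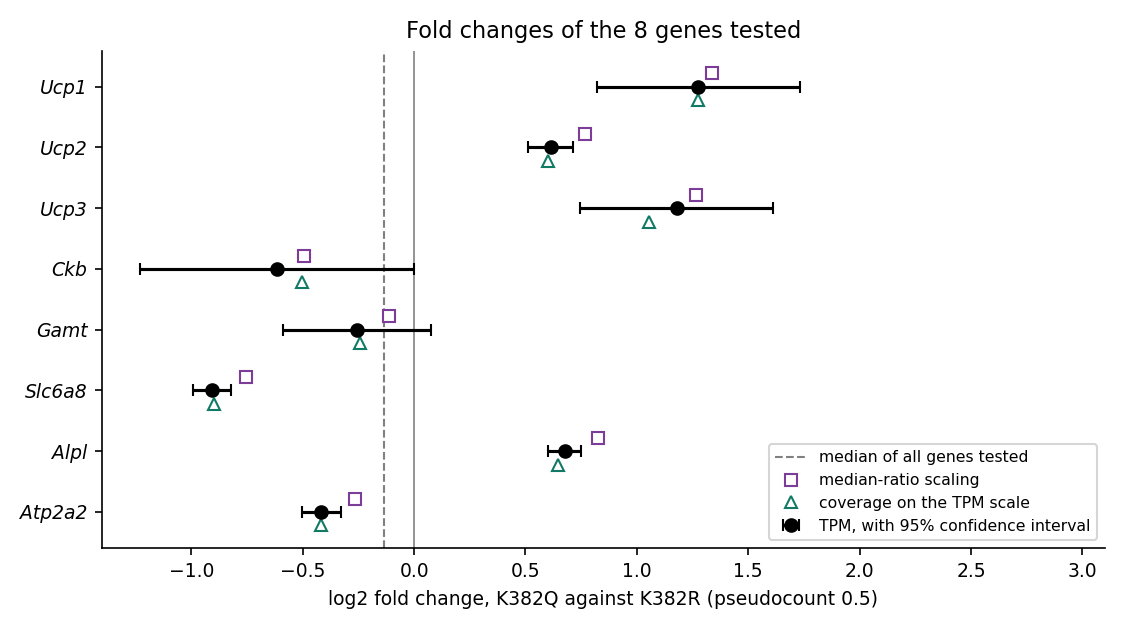
Log2 fold change between K382Q and K382R cells for the 8 genes tested (circles, TPM with 95% confidence intervals; squares, median-ratio scaling; triangles, coverage on the TPM scale), with the median of all genes tested as a dashed line. The 3 uncoupling protein genes and *Alpl* lie to the right of 0 and *Slc6a8* and *Atp2a2* to the left on every scale, and the interval of *Ckb* ends just short of 0 and that of *Gamt* passes it.

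The creatine cycle genes did not move as a group. Among the 4 tested, the gene of the creatine transporter was lower in K382Q cells, that of the phosphatase was higher, and 2 did not pass the test. Uptake of creatine depends on the transporter encoded by *Slc6a8* (ENSMUSG00000019558.15, chrX:72716756-72726108, plus strand). *Slc6a8* was at 23.6, 24.1 and 23.7 TPM in K382Q and at 44.6, 45.1 and 45.3 TPM in K382R replicates 1 to 3. Replicates agreed to within 1 TPM, and every K382R value was well above every K382Q value. The means were 23.8 ± 0.289 and 45.0 ± 0.357 TPM (SD, n = 3), so K382R cells had 1.89 times the level of K382Q cells (log2 fold change -0.91, SE 0.0372, 95% confidence interval -0.99 to -0.82, adjusted p = 2.1e-06 in limma). That was just short of the fold of 2 that defines a DEG. With median-ratio scaling it was -0.76, still past the test.

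Synthesis of creatine takes 2 steps, and the transcripts of the pair were very unequal in level. *Gatm* (ENSMUSG00000027199.15, chr2:122424948-122441784, minus strand), whose product makes guanidinoacetate from arginine and glycine, was at 0.0585 TPM in K382Q replicate 2 and listed at 0 in the other 5 libraries. *Gamt* (ENSMUSG00000020150.14, chr10:80093985-80096846, minus strand), whose product methylates guanidinoacetate to creatine, was at 8.52, 8.86 and 10.0 TPM in K382Q and at 13.5, 8.82 and 11.1 TPM in K382R replicates 1 to 3. The groups overlapped, since K382R replicate 2 lay within the range of the K382Q libraries. The means were 9.13 ± 0.776 and 11.1 ± 2.34 TPM (SD, n = 3), and the log2 fold change of -0.26 did not pass the test (SE 0.144, 95% confidence interval -0.59 to 0.08, adjusted p = 0.182 in limma). Without K382R replicate 2 it was -0.41 with an adjusted p of 0.0260 in limma, so that library decided the call. Without K382R replicate 1 it was -0.11 (adjusted p = 0.492 in limma), and with median-ratio scaling also -0.11 (adjusted p = 0.583).

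The kinases were also low. *Ckb* (ENSMUSG00000001270.10, chr12:111635795-111638772, minus strand), which encodes the brain-type creatine kinase, was at 1.26, 1.75 and 2.00 TPM in K382Q and at 3.09, 3.97 and 1.72 TPM in K382R replicates 1 to 3. In K382R replicates 1 and 2 *Ckb* was above every K382Q library, and in replicate 3 it was below 2 of them. The means were 1.67 ± 0.375 and 2.93 ± 1.13 TPM (SD, n = 3), and the log2 fold change of -0.62 did not pass the test (SE 0.264, 95% confidence interval -1.23 to -0.0025, adjusted p = 0.0911 in limma). Without K382R replicate 3 the difference was -0.90 with an adjusted p of 0.0108 in limma, and without K382R replicate 2 it was -0.40 with an adjusted p of 0.258. *Ckmt1* (ENSMUSG00000000308.15, chr2:121188195-121194218, plus strand), the ubiquitous mitochondrial creatine kinase, was listed at 0 in 3 libraries. It was at 0.0531 TPM in K382Q replicate 3, 0.112 TPM in K382R replicate 2 and 0.425 TPM in K382R replicate 3. The groups overlapped (exact permutation test, two-sided p = 0.4). With 3 against 3 libraries that test cannot go below 0.1, so it could not have passed 0.05.

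*Ckm* and *Ckmt2*, the muscle kinases of the cytosol and the mitochondrion, were each above 0 in a single library, at 0.058 and 0.059 TPM. *Ckb* was therefore most of the creatine kinase transcripts in every library, with 95.6 to 100% of them in K382Q cells and 80.2, 97.3 and 98.1% in K382R cells. The lowest share was that of K382R replicate 3, where *Ckb* was lowest and *Ckmt1* highest of the K382R libraries. The mean shares were 97.7 ± 2.22% and 91.9 ± 10.1% (SD, n = 3), with overlap between the mutants. The exact permutation test gave p = 0.5, where the smallest possible is 0.1. Without K382R replicate 3 the difference of 5.79 points became -0.033. From coverage the shares were 97.7 and 96.2%, with 93.2% in K382R replicate 3, so the gap between the mutants was smaller on that scale.

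*Alpl* (ENSMUSG00000028766.11, chr4:137469044-137523695, minus strand) encodes the tissue-nonspecific alkaline phosphatase, which hydrolyses phosphocreatine in fat cells and is otherwise best known in bone. It was at 135, 141 and 136 TPM in K382Q and at 87.2, 84.1 and 85.9 TPM in K382R replicates 1 to 3. Every K382Q library was above every K382R library, and the gap was many times the spread within a group. The means were 137 ± 2.98 and 85.7 ± 1.57 TPM (SD, n = 3), a ratio of 1.60 (log2 fold change 0.68, SE 0.0318, 95% confidence interval 0.60 to 0.75, adjusted p = 3.7e-06 in limma). Of 8 other osteoblast markers 3 were tested. *Spp1* and *Runx2* were lower in K382Q cells (log2 fold changes -1.27 and -0.39), and *Bglap* at -0.60 did not pass the test (adjusted p = 0.139 in limma).

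The level of *Alpl* depended on how it was read. When the deposited coverage was put on the TPM scale, as the TPM that a gene with 1 transcript would have, *Alpl* was at 11.4 ± 0.285 in K382Q and 7.11 ± 0.145 in K382R cells (SD, n = 3). Its TPM was 12.0 times that value, with 12.0 to 12.1 over the 6 libraries. Over 13649 genes with a coverage of at least 1 in every library the median of this ratio was 1.43, and 98.3% of them had a lower ratio than *Alpl*. For *Ucp1* the ratio was 1.00, for *Ucp3* 1.32, for *Slc6a8* 1.59 and for *Ucp2* 1.83. The change of *Alpl* was alike on both scales, with log2 fold changes of 0.68 from TPM and 0.65 from coverage.

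**Figure D3:**
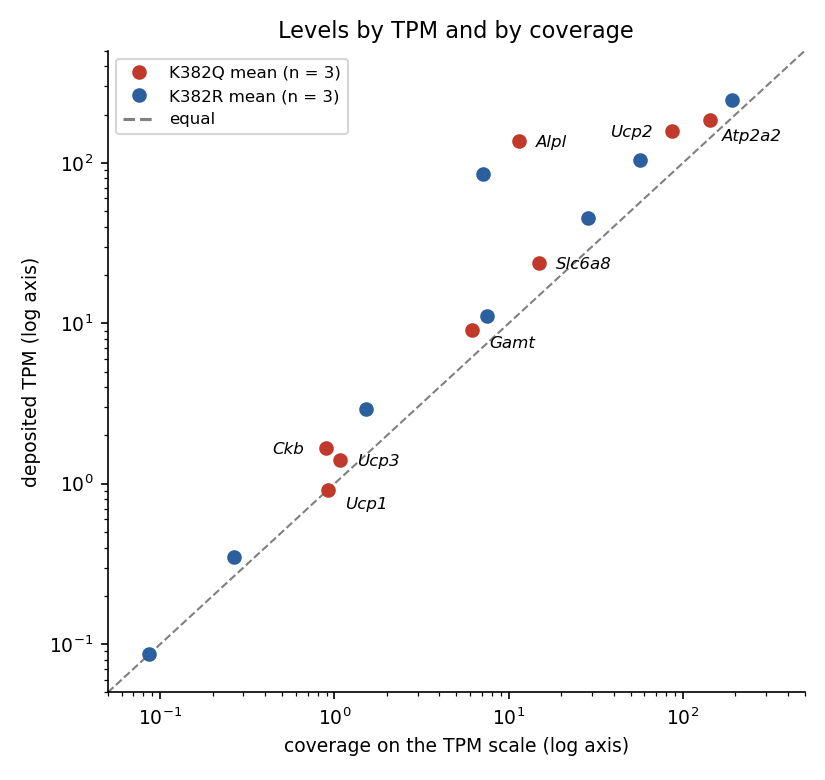
Mean TPM (vertical, log axis) against mean coverage on the TPM scale (horizontal, log axis) for the 8 genes tested in K382Q and K382R cells (n = 3 each), with the line of equal values. *Alpl* lies 12.0 times above the line and the other genes lie on it or within 2 times of it.

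In K382Q cells the order by TPM was *Atp2a2*, *Ucp2*, *Alpl*, *Slc6a8*, *Gamt*, *Ckb*, *Ucp3* and *Ucp1*, with *Gatm* and *Ckmt1* near 0. The ranges of *Ckb* and *Ucp3* overlapped, and each of the other neighbours down to *Ucp1* was apart from the next in all 3 libraries. In K382R cells the order was the same down to *Ucp3*, and *Ckmt1* there overlapped both *Ucp3* and *Ucp1*. By coverage on the TPM scale *Alpl* came after *Slc6a8* in both mutants, without overlap. In K382R cells it also came after *Gamt* by the mean, but *Gamt* at 5.95 to 9.14 overlapped *Alpl* at 6.99 to 7.27. In K382Q cells the means of *Ucp3*, *Ucp1* and *Ckb* were then 1.08, 0.917 and 0.898, and *Ckb* overlapped both of the others.

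In the calcium cycle, *Atp2a2* was lower in K382Q cells while another SERCA gene was higher. *Atp2a2* (ENSMUSG00000029467.16, chr5:122591576-122640288, minus strand) was at 195, 184 and 179 TPM in K382Q and at 242, 247 and 255 TPM in K382R replicates 1 to 3. It was the most abundant of the 10 genes in every library, and the mutants did not overlap. The means were 186 ± 7.76 and 248 ± 6.11 TPM (SD, n = 3), so the level in K382R cells was 1.33 times that in K382Q cells (log2 fold change -0.42, SE 0.0379, 95% confidence interval -0.50 to -0.33, adjusted p = 8.2e-05 in limma). With median-ratio scaling the difference was -0.26 and still passed (adjusted p = 0.00066 in limma).

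*Atp2a3*, which encodes SERCA3, was at 80.3, 79.1 and 74.7 TPM in K382Q and at 43.9, 45.0 and 43.1 TPM in K382R replicates 1 to 3. The log2 fold change was 0.82 (SE 0.0404, adjusted p = 4.3e-06 in limma), the opposite of *Atp2a2*, and it was 0.97 with median-ratio scaling. *Atp2a1*, the pump of fast muscle, was at most 0.341 TPM and was not tested. *Atp2a2* made up 70.7, 69.9 and 70.5% of SERCA transcripts in K382Q and 84.6, 84.5 and 85.5% in K382R replicates 1 to 3. The share did not overlap between the mutants. Its means of 70.4 ± 0.433% and 84.9 ± 0.543% (SD, n = 3) differed by -14.5 points (K382Q minus K382R), with an exact permutation p of 0.1, the smallest possible here. A share within a library does not depend on how libraries are scaled. From coverage the shares were 68.1 and 83.4%. The summed SERCA TPM was 264 ± 10.5 in K382Q and 292 ± 5.60 in K382R cells (SD, n = 3).

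**Figure D4:**
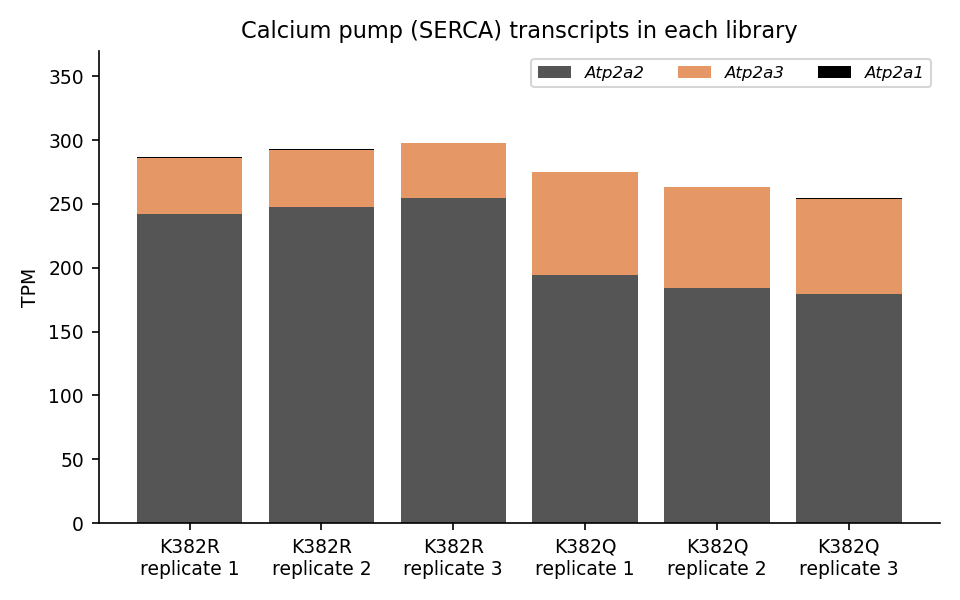
TPM of the 3 SERCA genes stacked in each of the 6 libraries (bars start at 0). *Atp2a2* makes up 69.9 to 70.7% of the bars of K382Q cells and 84.5 to 85.5% of those of K382R cells, and *Atp2a1* is barely visible.

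Most of the other calcium handling genes that were tested were lower in K382Q cells on the TPM scale. Of 37 listed genes 35 were found and 21 tested, of which 2 were higher, 16 lower and 3 not past the test (median log2 fold change -0.29, against -0.14 over all genes tested, of which 11.1% were higher and 36.9% lower). With median-ratio scaling 3 were higher and 10 lower, with a median of -0.15 against 0.0039 and with 19.9% higher and 20.4% lower over all genes, so the call of several lower genes depended on the scaling. The genes named next were chosen with their values in view. *Calr*, the calcium-binding chaperone calreticulin of the endoplasmic reticulum, was at 616 ± 8.72 and 879 ± 6.29 TPM (SD, n = 3, log2 fold change -0.51). Its membrane-bound relative *Canx* was lower by a log2 fold change of -0.40. Among the IP3 receptors, which release calcium from that store, *Itpr2* was higher (0.37) and *Itpr3* lower (-0.38), and *Itpr1* at -0.04 did not pass the test. *Atp2b4*, a calcium pump of the plasma membrane, was at 0.673 ± 0.0950 and 1.68 ± 0.277 TPM (SD, n = 3, log2 fold change -0.89). Each of these directions was the same with median-ratio scaling, except that *Itpr1*, not past the test on either scale, had a value of 0.11. *Sln*, *Strit1* and *Ryr3* were listed at 0 in every library. *Pln* was at 0.113 TPM in K382R replicate 1 and listed at 0 in the others, so transcripts of sarcolipin and phospholamban, the small inhibitors of SERCA in muscle, were listed at or near 0 throughout.

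Of 6 other mitochondrial carriers listed, 5 were tested and 1 passed, against 48.1% of all genes tested. This was *Slc25a5*, the ADP/ATP carrier ANT2, which was at 1034 ± 23.7 TPM in K382Q and 1193 ± 26.1 TPM in K382R cells (SD, n = 3, log2 fold change -0.21, adjusted p = 0.00099 in limma). With median-ratio scaling it was -0.05 and no longer past the test (adjusted p = 0.208 in limma). The *Slc25a4* product ANT1, which also carries a proton leak, was at 365 and 379 TPM (log2 fold change -0.05, not past the test). Of the 6 other creatine genes 3 were tested. *Ahcy*, which clears the S-adenosylhomocysteine left by methylations such as that of GAMT, was higher in K382Q cells (149 ± 2.41 against 105 ± 1.91 TPM, SD, n = 3, log2 fold change 0.50, adjusted p = 1.1e-05 in limma), and *Mat2a* and *Mat2b*, of S-adenosylmethionine synthesis, did not pass the test. With median-ratio scaling *Mat2b* did pass, as higher in K382Q cells (0.25, adjusted p = 0.0024 in limma).

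Breakdown and re-esterification of triglycerides form a further cycle that spends ATP. All 13 genes listed for it were tested, of which 4 were higher, 4 lower and 5 not past the test (median log2 fold change -0.09), against 11.1% higher and 36.9% lower over all genes tested. *Lpin1*, *Mgll*, *Gpd1* and *Agpat2* were higher, with log2 fold changes of 0.39, 0.38, 0.36 and 0.27. *Acsl1*, *Dgat1*, *Gk* and *Abhd5* were lower, with -0.47, -0.43, -0.32 and -0.18. *Pnpla2* and *Lipe*, the lipases that begin the breakdown, were at 668 and 517 TPM in K382Q and 674 and 549 TPM in K382R cells and did not pass the test. With median-ratio scaling 6 of the 13 were higher and 3 lower, against 19.9% and 20.4% of all genes. *Pnpla2* was then among the higher genes (0.14), and *Abhd5* at -0.02 was no longer among the lower ones.

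**Figure D5:**
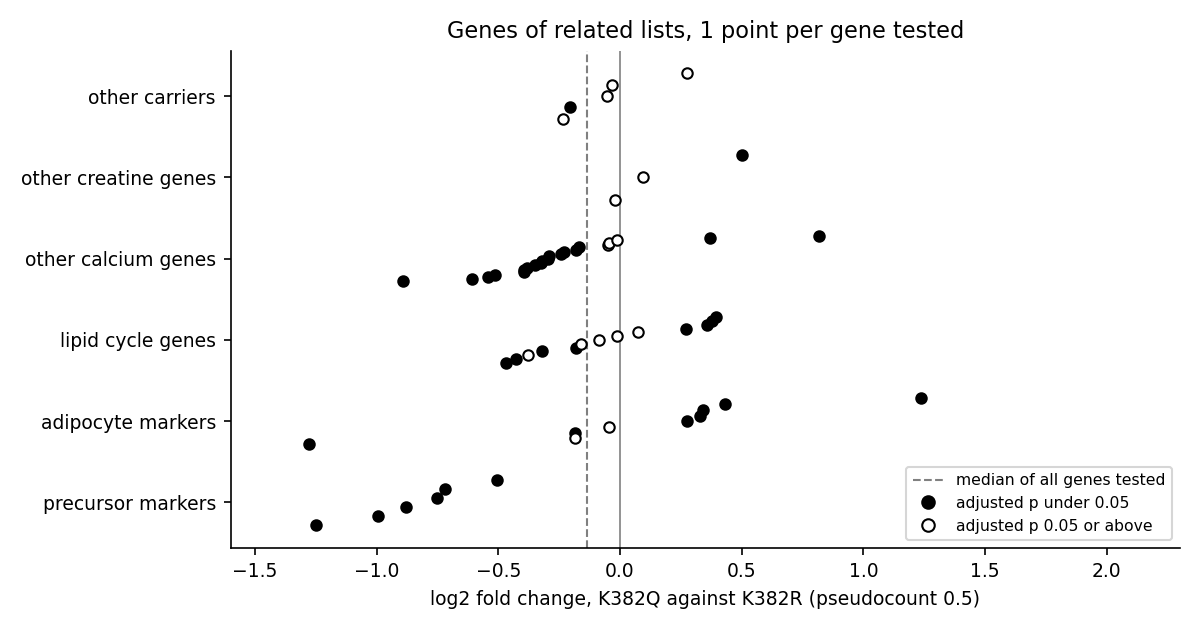
Log2 fold change between K382Q and K382R cells (horizontal) of each gene tested in 6 lists (rows), filled where the adjusted p of limma was under 0.05, with the median of all genes tested as a dashed line. Most points of the calcium genes lie left of 0, those of the triglyceride cycle lie on both sides, and all 6 precursor markers lie to the left.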

How the data were processed

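There were 6 RNA-seq libraries, 3 of each PPARγ2 mutant. The authors used HISAT2 to align trimmed reads to GRCm39, and StringTie for the gene values. The release of the annotation is not given in the sources used here. The coverage that the authors deposited is the mean read depth per base, without normalization. The deposited FPKM is scaled to the aligned bases of a library. TPM as deposited has 1 total for all libraries and so gives shares of transcripts. The authors ran DESeq2 on counts that were not used here, and no intervals from counts are given. Coverage divided by FPKM gave the aligned bases of a library.

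Entries with the same gene ID (at most 5 in a table) were summed. The mutants were compared with limma 3.58.1 in R 4.3.3 (lmFit, eBayes with an intensity trend, two-sided) on log2(TPM + 0.5), over genes that reached 0.5 TPM in 3 or more of the 6 libraries, and p-values were adjusted over all of them (Benjamini-Hochberg). The count test planned in case of raw counts could not be run, since the values used here are coverage, FPKM and TPM. Shares within a family and genes below the filter were compared by exact permutation. Other steps were run in Python 3.11.15 (scipy 1.17.1, pandas 2.3.3, numpy 2.4.6 and matplotlib 3.10.9). Coverage was put on the TPM scale by the factor of each library that equals TPM per unit of coverage for genes with 1 transcript. The test was tried on simulated data, from which no result is used here. Promoters were those of RefSeq, with its build, and positions of genes are those of the deposited tables.

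The genes and lists were chosen with earlier results of these data known. Genes named are the 10 chosen, the other members of the 3 families, and DEGs of the other lists, and further genes of the lists were chosen with their values in view. Alternatives were pseudocounts of 0.1 and 1, no filter, a filter at 1 TPM, FPKM, quantile normalization, median-ratio scaling, eBayes without the trend, a replicate block, omission of each library and, added after the data were seen, coverage on the TPM scale.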

Additional observations from a re-analysis of the deposited data

How the results depend on the processing

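Between 5 and 6 of the 10 genes passed the test in limma under the 10 alternatives that kept all libraries, and between 4 and 7 when each library was left out in turn. *Ucp2*, *Slc6a8*, *Alpl* and *Atp2a2* kept their direction and passed under all 16 alternatives. The count of DEGs, 2 on the TPM scale, was 0 with a pseudocount of 1, 1 with the filter at 1 TPM and 0 with FPKM. With each library left out in turn it was 0 to 2, and it was 0 without any one of the K382Q libraries, because *Ucp1* and *Ucp3* then fell below the filter and were not tested. *Ucp1* was not tested with FPKM or with the higher filter either. Where they were tested, the log2 fold change of *Ucp1* was 0.82 to 2.50 and that of *Ucp3* 0.77 to 1.79. Both passed each time. They reached the filter through the K382Q libraries alone, so a pass was partly built in and does not measure stability. *Ckb* passed only without K382R replicate 3 (-0.90) and *Gamt* only without K382R replicate 2 (-0.41), with adjusted p-values over all alternatives of 0.0108 to 0.258 and 0.0260 to 0.583. With each library left out in turn, the difference in the *Ckb* share of creatine kinase TPM was -0.033 to 8.91 points, that of the *Ucp2* share -1.10 to -0.966 and that of the *Atp2a2* share -14.7 to -14.2. With the replicate number as a block 6 genes passed and 2 were DEGs, and 6987 of all genes tested passed against 7415 without it. The numbers did not pair the libraries, since the deviations of same-numbered libraries correlated by -0.018, 0.051 and 0.022 and not every library correlated best with its own number. With coverage of 0.134 to 1.00 over *Ucp1* and *Ucp3* in K382R libraries, depth limits how well their folds are known.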
